A study of Mus musculus with 8 samples.

Results

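The 33 genes described here encode the mitochondrial pyruvate carrier, pyruvate carboxylase, the pyruvate dehydrogenase complex and its regulators, enzymes of the tricarboxylic acid (TCA) cycle with their cytosolic counterparts, the aspartate transaminases, and the enzymes that draw citrate and oxaloacetate out of the cycle. They were chosen by symbol from a table of 54532 annotated mouse genes, and all 33 had enough reads to be tested. PolyA RNA came from the stomach corpus, the part that secretes acid and pepsinogen, of 4 mutant and 4 control mice. All were untreated and of a mixed C57BL/6 x CD1 strain background. The mutants were Six2-Cre+/- PKAcaR fl/wt, with 1 copy of a floxed PKAcaR allele that the labels describe no further, and the controls were Six2-Cre+/- PKAcaR wt/wt, so that all 8 mice carried the Cre transgene driven by the Six2 promoter. Each library came from 1 animal, and the sources used here give neither age nor sex. The question was which genes differ between mutant and control corpus.

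Pyruvate made by glycolysis enters mitochondria through a carrier formed by MPC1 and MPC2. There the pyruvate dehydrogenase complex turns it into acetyl-CoA, which citrate synthase joins to oxaloacetate, and the following steps of the cycle release carbon dioxide and reduce NAD and FAD for the respiratory chain. Kinases of the PDK family inactivate pyruvate dehydrogenase by phosphorylation, and phosphatases restore it. In the stomach, the acid-secreting parietal cell is known for its dense mitochondria, which supply the ATP used by the proton pump.

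Total counts lay between 18184281 and 23814720 reads in mutants and between 18942308 and 22814152 in controls. Prkaca, which encodes the catalytic subunit alpha of protein kinase A, was at 36.8, 40.7, 37.0 and 37.1 CPM in mutants 1 to 4, against 86.0, 79.8, 77.8 and 77.1 CPM in controls 1 to 4, lower in mutants (log2 fold change -1.08, SE 0.0852, adjusted p = 0.000604). CPM are read counts scaled to a common library size with TMM (trimmed mean of M-values) factors, and adjusted p-values are from edgeR's quasi-likelihood test over all 15862 genes tested, with a threshold of 0.05. Mutant 2 stood apart from the other mutants, with a correlation of log2 CPM across genes of at most 0.882 with any of them, against 0.981 or 0.982 as the highest value for each of the other 3. It held 21570 summed CPM of 6 fibroblast and endothelial markers, against 806 to 1182 in the other mutants and 722 to 844 in controls. The collagen genes Col1a1 and Col1a2 weighed most in that list. Their means over the 4 mutants were 2963 and 2809 CPM, against 41.3 to 115 CPM for each of its other genes. Mutant 3 and control 3 held transcripts of the squamous forestomach, with 564 and 214 summed CPM of 6 markers, against at most 2.74 in the other mutants and at most 1.78 in the other controls.

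Expression of most of the 33 genes was lower in mutant than in control corpus, and expression of 1 gene, Idh1, was higher. The test called 22 of the 33, where it called 20.2% of all genes tested. Of these 21 fell (63.6% of the 33), where 10.8% of all genes tested fell, and 1 rose, where 9.39% of all genes tested rose. The other 11 did not pass. The median log2 fold change (mutant over control) was -0.95 over the 33 genes and 0.07 over all genes tested. In 25 of the 33 all 4 mutants lay below all 4 controls, and in 1 all 4 mutants lay above. Over all genes tested the groups were apart in 30.3%, with mutants below in 16.1% and above in 14.2%. Called changes of at least 2-fold were 11 falls and 1 rise, where 6.6% and 5.44% of all genes tested fell or rose by as much.

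**Figure D1:**
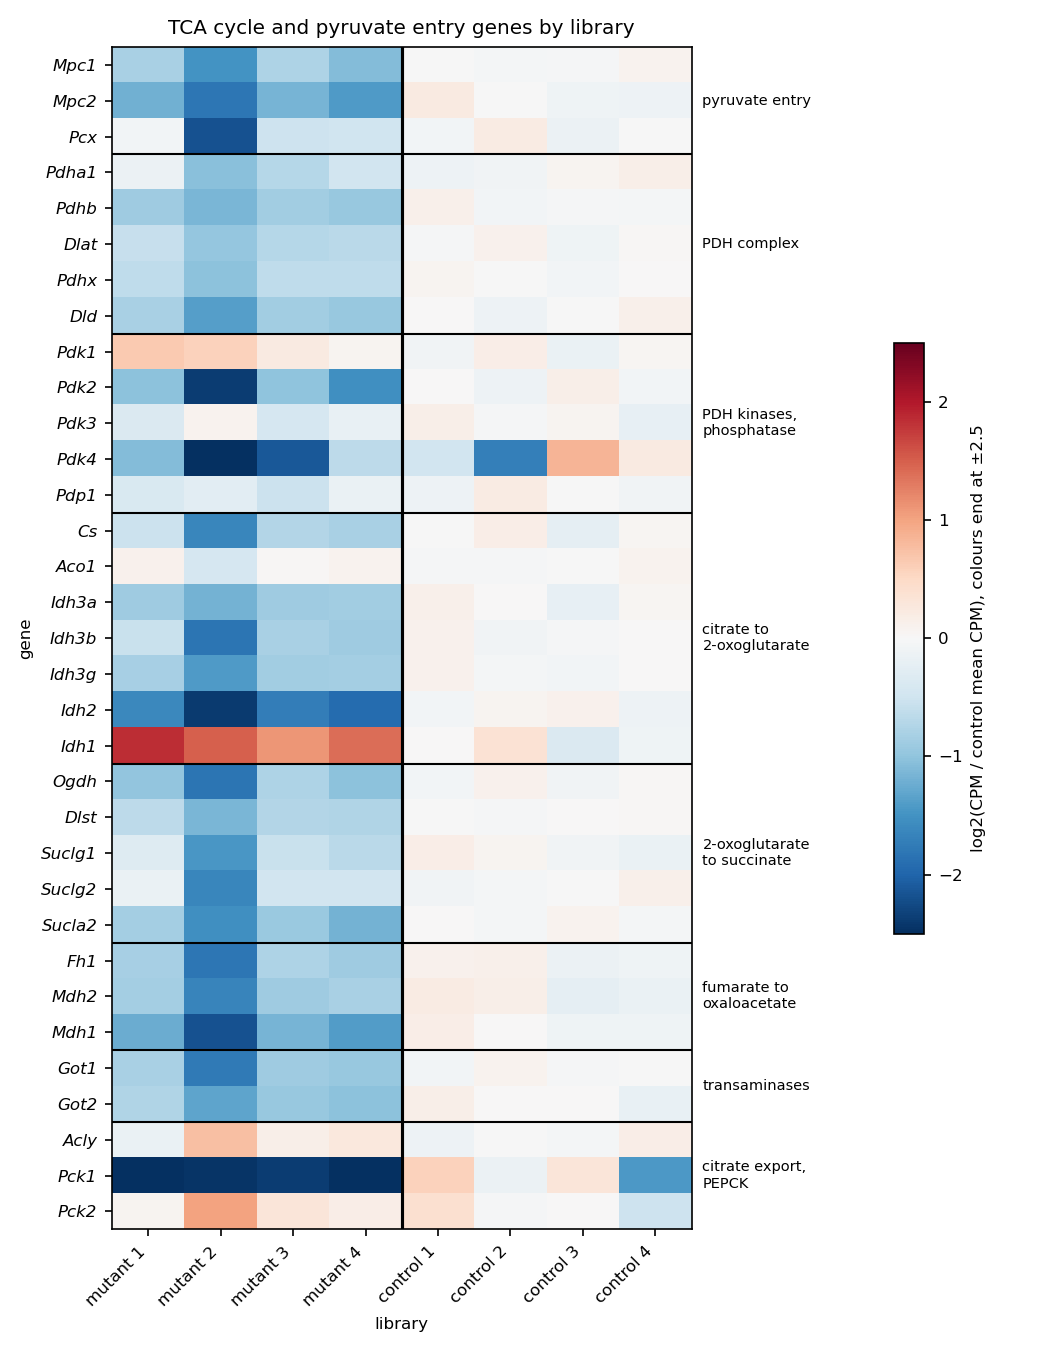
Level of each of the 33 genes (rows, grouped by role) in each library (columns, mutants left of controls), as the log2 of its CPM over the mean CPM of the 4 controls, with the colours ending at ±2.5. Most rows are blue in all 4 mutants and deepest in mutant 2, while the Idh1 row is red in all 4 mutants.

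Summed over the 33 genes, the level was 3717, 2342, 3372 and 3278 CPM in mutants 1 to 4, against 5671, 5706, 5281 and 5454 CPM in controls 1 to 4. The groups did not overlap on this scale. As a share of all counted reads, by contrast, the 33 genes took 0.467, 0.307, 0.418 and 0.421% in mutants 1 to 4, against 0.462, 0.457, 0.363 and 0.457% in controls 1 to 4, and those ranges overlapped. The 50 most abundant genes held 12.4% to 22.8% of the reads in mutants and 45.8% to 56.1% in controls. Of the reads outside those 50 genes, the 33 genes took 0.576, 0.350, 0.542 and 0.515% in mutants 1 to 4, against 0.851, 0.844, 0.826 and 0.847% in controls 1 to 4, again without overlap.

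With raw column totals as library sizes, the median over all genes tested lay 0.70 higher on the log2 scale. There 6 of the 33 genes were lower, where 4.56% of all genes were, and 6 were higher, where 59.3% of all genes were. Of the 22 genes called with TMM scaling, 7 kept their call with column totals, namely Mpc2, Pdk2, Idh2, Idh1, Sucla2, Mdh1 and Pck1, and the other 15 lost it without a change of sign. Relative to the median of all genes the median of the 33 was -1.02 on both scales, and 29 of the 33 lay below the median of all genes on both. A change of library sizes moves all genes by nearly the same amount. These relative values could therefore hardly differ between the scales, and their likeness is no separate evidence. With column totals that left out the 50 most abundant genes, a setting chosen after seeing the data, 21 of the 33 genes were lower and 1 higher, the same 22 as with TMM, where 9.48% and 10.1% of all genes were.

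**Figure D2:**
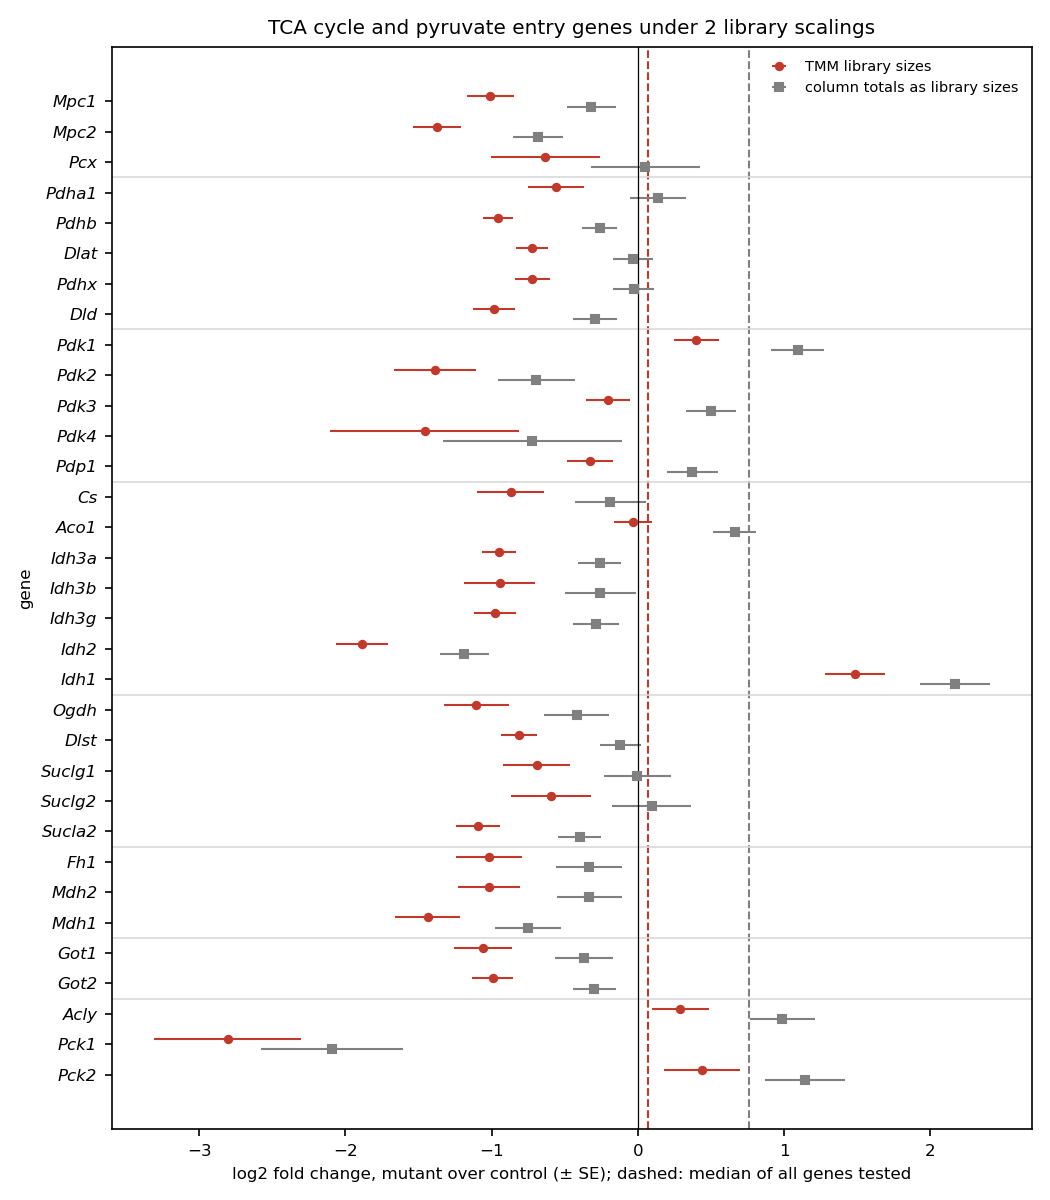
Log2 fold change (mutant over control, ± SE) of each of the 33 genes with TMM library sizes (circles) and with raw column totals (squares). The dashed lines give the median of all genes tested, 0.07 with TMM and 0.76 with column totals, and 29 of the 33 genes lie left of that line on either scale. The change of scale moves all genes nearly alike, so places relative to the line could hardly change.

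Levels of cell markers differed between the same libraries. Over all genes tested, 10.8% fell and 9.39% rose. The 12 parietal cell markers summed to 298 to 2846 CPM in mutants and 16285 to 20656 CPM in controls, 9 of the 12 fell, and none was at 0 in either group. The 9 smooth muscle markers summed to 297 to 887 CPM in mutants and 2999 to 3934 CPM in controls, and all 9 fell. The 4 mucous neck cell markers summed to 9105 to 26824 CPM in mutants and 2387 to 6202 CPM in controls, and all 4 rose, while 4 of 7 leukocyte markers rose, with sums of 125 to 1552 CPM in mutants and 91.2 to 101 CPM in controls. Of 6 chief cell markers 3 fell, and their sums were 996 to 41618 CPM in mutants and 298412 to 533952 CPM in controls. Of 6 endocrine cell markers 4 fell, with sums of 105 to 521 CPM in mutants and 1974 to 2887 CPM in controls. None of the 4 pit cell markers was called. Their sums were 4277 to 33275 CPM in mutants and 39296 to 63921 CPM in controls. The part of these differences in the levels of the 33 genes was not tested. In bulk tissue, fewer cells of a type and less RNA per cell cannot be told apart.

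**Figure D3:**
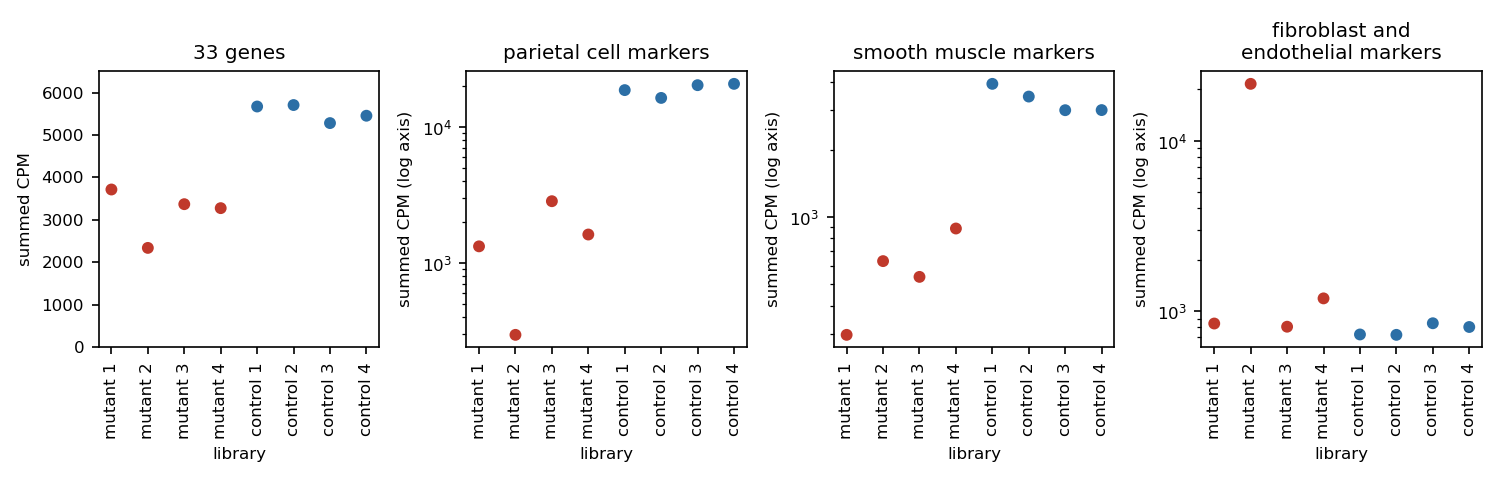
Summed CPM per library (mutants left, red, and controls right, blue) of the 33 genes on a linear axis, and of the parietal cell, smooth muscle, and fibroblast and endothelial markers on log axes. Mutant 2 has the lowest sum of the 33 genes (2342) and of the parietal markers (298) and the highest sum of fibroblast and endothelial markers (21570).

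The NADP-dependent isocitrate dehydrogenases changed in opposite directions. Idh1 encodes the cytosolic and peroxisomal NADP-dependent enzyme (ENSMUSG00000025950, chromosome 1, 65158616 to 65186500; all coordinates are as in the count table and match GRCm38). It was at 336, 263, 201 and 245 CPM in mutants 1 to 4, against 93.6, 120.5, 73.2 and 86.9 CPM in controls 1 to 4. Every mutant lay above every control, and Idh1 was 2.79-fold higher in mutants (log2 fold change 1.48, SE 0.21, adjusted p = 0.003). Idh2, which encodes the mitochondrial NADP-dependent enzyme (ENSMUSG00000030541, chromosome 7, 80094846 to 80115392), was at 103, 60.3, 95.3 and 83.6 CPM in mutants 1 to 4, against 303, 331, 342 and 289 CPM in controls 1 to 4. Here every mutant lay below every control, and the level was 3.69-fold lower in mutants (log2 fold change -1.89, SE 0.18, adjusted p = 0.00102).

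Levels of the 2 genes can be compared per transcript length with FPKM, the authors' length-scaled values. Idh1 was at 93.6 ± 20.04 FPKM in mutants and 33.5 ± 6.98 FPKM in controls, and Idh2 was at 32.9 ± 7.20 FPKM in mutants and 121 ± 9.58 FPKM in controls (SD, n = 4 each). Idh1 thus ranked first of the 33 genes in mutants and at place 15 in controls, while Idh2 ranked at place 10 in mutants and second in controls, after Mdh1. The ratio of Idh1 to Idh2 FPKM, which does not depend on library size, was 3.04, 4.07, 1.97 and 2.73 in mutants 1 to 4, against 0.288, 0.340, 0.200 and 0.281 in controls 1 to 4. The summed FPKM of the pair was 160.0, 117, 109 and 120 in mutants 1 to 4, against 150, 169, 158 and 141 in controls 1 to 4, and those ranges overlapped. With column totals as library sizes both calls remained, at 2.17 (SE 0.24) for Idh1 and -1.19 (SE 0.17) for Idh2.

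**Figure D4:**
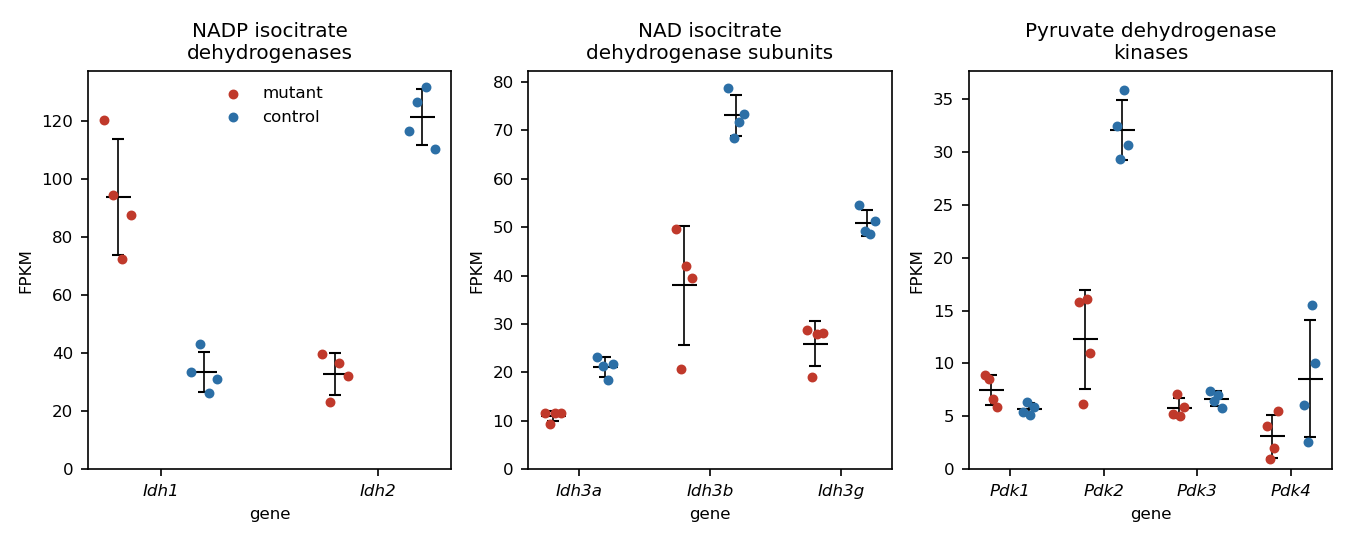
FPKM of the NADP-dependent isocitrate dehydrogenases, the subunits of the NAD-dependent enzyme and the pyruvate dehydrogenase kinases, with mutants (red) left of controls (blue), 1 point per library, and mean ± SD (n = 4) in black. Idh1 is higher in all 4 mutants, Idh2, the 3 Idh3 subunits and Pdk2 are lower in all 4 mutants, and Pdk1, Pdk3 and Pdk4 overlap between the groups.

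The windows around the start sites of these oppositely changed genes are shown with those of Ogdh and Mdh2, cycle genes whose windows hold a cyclic AMP response element (letters TGACGTCA, a palindrome bound by CREB, a known substrate of protein kinase A). Each sequence runs 5′ to 3′ on the gene's strand over 300 bases, 250 before to 50 after the start site, from RefSeq for GRCm38.p6. Capitals mark the element, and the windows of Idh1 and Idh2 hold none.
Idh1 (chr1:65186430-65186729, minus strand): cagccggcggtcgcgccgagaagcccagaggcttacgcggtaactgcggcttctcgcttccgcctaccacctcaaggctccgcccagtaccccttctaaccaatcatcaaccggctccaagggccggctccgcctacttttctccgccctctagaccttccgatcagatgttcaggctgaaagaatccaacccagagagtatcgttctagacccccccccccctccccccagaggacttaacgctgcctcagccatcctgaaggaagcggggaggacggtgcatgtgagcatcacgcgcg
Idh2 (chr7:80115301-80115600, minus strand): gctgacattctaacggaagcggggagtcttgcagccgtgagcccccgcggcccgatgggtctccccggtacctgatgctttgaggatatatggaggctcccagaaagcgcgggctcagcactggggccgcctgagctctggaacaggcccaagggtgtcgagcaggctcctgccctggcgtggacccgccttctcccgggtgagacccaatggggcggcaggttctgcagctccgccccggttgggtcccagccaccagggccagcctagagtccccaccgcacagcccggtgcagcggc
Ogdh (chr11:6291347-6291646, plus strand): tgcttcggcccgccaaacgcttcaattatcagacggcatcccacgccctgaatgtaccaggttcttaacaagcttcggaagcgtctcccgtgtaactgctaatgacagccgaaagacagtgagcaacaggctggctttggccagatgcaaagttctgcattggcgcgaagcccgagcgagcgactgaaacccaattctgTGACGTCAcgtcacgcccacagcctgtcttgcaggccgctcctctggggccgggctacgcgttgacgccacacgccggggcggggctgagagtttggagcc
Mdh2 (chr5:135778399-135778698, plus strand): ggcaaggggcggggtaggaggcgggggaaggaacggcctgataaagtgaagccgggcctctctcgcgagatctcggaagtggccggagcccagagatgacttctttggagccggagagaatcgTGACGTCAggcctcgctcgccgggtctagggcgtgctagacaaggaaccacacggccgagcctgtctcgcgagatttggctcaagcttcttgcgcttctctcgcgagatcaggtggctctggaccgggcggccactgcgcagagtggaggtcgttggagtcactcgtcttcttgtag
The 31 genes found in the RefSeq table, all but Idh3a and Pdp1, had 41 such windows. The element was in windows of 2 of the 31 genes (6.45%), Ogdh, where 3 overlapping windows share the same copy, and Mdh2, and in windows of 2.03% of all 27025 genes. The core motif of the estrogen-related receptors, AAGGTCA on either strand, was in windows of Got1 and Ogdh (6.45% of the 31 genes) and of 5.38% of all genes. Its extended form, TNAAGGTCA, which contains the core motif, was in none of the 41 windows and in windows of 1.43% of all genes. The median share of G and C bases was 61.3% in windows of the listed genes and 52.7% in all windows. Its part in these motif shares was not tested. These are matches of letters only, and binding was not measured.

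The NAD-dependent isocitrate dehydrogenase, the enzyme of the cycle proper, fell in all 3 subunit genes, where 10.8% of all genes tested fell. Idh3a, the catalytic subunit gene, was at 58.7, 47.9, 58.6 and 58.9 CPM in mutants 1 to 4, against 118, 109, 93.4 and 112 CPM in controls 1 to 4. Idh3g, for a regulatory subunit, was at 77.9, 51.7, 75.5 and 76.7 CPM in mutants 1 to 4, against 148, 134, 132 and 140.0 CPM in controls 1 to 4. In both genes every mutant lay below every control, with log2 fold changes of -0.95 (SE 0.12, adjusted p = 0.00192) for Idh3a and -0.98 (SE 0.15, adjusted p = 0.00389) for Idh3g. Idh3b, for the remaining subunit, was at 171, 71.4, 144 and 137 CPM in mutants 1 to 4, against 271, 237, 247 and 254 CPM in controls 1 to 4 (log2 fold change -0.95, SE 0.24, adjusted p = 0.0291). Mutants 1, 3 and 4 lay closer to the controls than mutant 2 did. The call of Idh3b was lost without mutant 4 or any 1 control (adjusted p of 0.0609 to 0.0785). Idh3b overlaps Nop56 on the opposite strand, which held 35.1% as many reads as Idh3b, and since the sources used here do not state whether counting used strand, reads of the pair cannot be told apart.

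Citrate synthase, which starts the cycle, also fell. Cs was at 309, 144, 268 and 254 CPM in mutants 1 to 4, against 444, 499, 379 and 461 CPM in controls 1 to 4 (log2 fold change -0.87, SE 0.23, adjusted p = 0.0323), and the groups did not overlap. That call was lost without mutant 4 (adjusted p = 0.0754) or any 1 control (adjusted p of 0.0570 to 0.0800). Aco1, the cytosolic aconitase that without its iron-sulfur cluster binds RNA as iron regulatory protein, overlapped between the groups and was not called (90.2 ± 14.4 CPM in mutants and 92.2 ± 3.73 CPM in controls, SD, n = 4 each, log2 fold change -0.03, SE 0.13, adjusted p = 0.882). With column totals Aco1 was higher in mutants (0.66, SE 0.15, adjusted p = 0.00511), but below the median of 0.76 over all genes on that scale.

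In the span from 2-oxoglutarate to succinate, 3 of 5 genes fell, where 10.8% of all genes tested fell, and in all 5 every mutant lay below every control, as in 16.1% of all genes tested. Ogdh, the first component of the 2-oxoglutarate dehydrogenase complex, was at 320.2, 179, 370.3 and 312 CPM in mutants 1 to 4, against 609, 684, 600.2 and 648 CPM in controls 1 to 4 (log2 fold change -1.10, SE 0.22, adjusted p = 0.0115). Dlst, its dihydrolipoyl succinyltransferase, was at 136, 97.2, 128 and 127 CPM in mutants 1 to 4, against 213, 210.0, 215 and 219 CPM in controls 1 to 4 (log2 fold change -0.81, SE 0.13, adjusted p = 0.00445). In both genes mutant 2 was the lowest library. Succinyl-CoA ligase is built from the alpha subunit SUCLG1 and a beta subunit that sets whether ATP (SUCLA2) or GTP (SUCLG2) is formed. Sucla2 was at 61.6, 38.6, 58.7 and 48.9 CPM in mutants 1 to 4, against 112, 107, 118 and 107 CPM in controls 1 to 4 (log2 fold change -1.10, SE 0.15, adjusted p = 0.00296). Its call also remained with column totals (-0.40, SE 0.15, adjusted p = 0.0389). Suclg2 was at 146, 52.5, 117 and 118 CPM in mutants 1 to 4, against 154, 159, 163 and 178 CPM in controls 1 to 4 (log2 fold change -0.60, SE 0.27, adjusted p = 0.155), and Suclg1 was at 128, 57.8, 108 and 99.8 CPM in mutants 1 to 4, against 178, 168, 149 and 142 CPM in controls 1 to 4 (log2 fold change -0.69, SE 0.23, adjusted p = 0.064). For both genes mutant 1 was the mutant nearest to the controls and mutant 2 the farthest, and neither was called. Without mutant 2 both were lower (Suclg2 -0.37, SE 0.11, adjusted p = 0.0299, and Suclg1 -0.51, SE 0.13, adjusted p = 0.00953). Of 21 other fits, that one included, only 2 called Suclg2 and 4 called Suclg1. Across those fits the log2 fold change reached 0.09 for Suclg2 and -0.0051 for Suclg1. Sucla2 made up 32.9, 46.0, 36.7 and 32.5% in mutants 1 to 4, against 45.6, 43.9, 45.6 and 41.2% in controls 1 to 4 of the beta subunit FPKM, with overlapping groups.

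All 3 genes that lead from fumarate to oxaloacetate fell, where 10.8% of all genes tested fell. Fh1, fumarate hydratase, was at 102, 51.6, 107 and 98.0 CPM in mutants 1 to 4, against 196, 198, 165 and 167 CPM in controls 1 to 4 (log2 fold change -1.02, SE 0.22, adjusted p = 0.0171). It missed the threshold when control 1 was left out (adjusted p = 0.0511). Mdh2, the mitochondrial malate dehydrogenase, was at 213, 122, 207 and 218 CPM in mutants 1 to 4, against 444, 425, 328 and 344 CPM in controls 1 to 4 (log2 fold change -1.02, SE 0.21, adjusted p = 0.0135). Mutant 2 lay far below the other mutants in both genes. Mdh1, the cytosolic malate dehydrogenase of the malate-aspartate shuttle (ENSMUSG00000020321, chromosome 11, 21556787 to 21572367), was the most abundant of the 33 genes per length in controls. It was at 236, 123, 248 and 212 CPM in mutants 1 to 4, against 625, 561, 518 and 516 CPM in controls 1 to 4, 2.71-fold lower in mutants without overlap (log2 fold change -1.44, SE 0.23, adjusted p = 0.00468). As a share of malate dehydrogenase FPKM, Mdh1 made up 60.7, 58.2, 62.4 and 57.4% in mutants 1 to 4, against 66.1, 64.7, 68.6 and 67.6% in controls 1 to 4, and each mutant lay below each control.

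The aspartate transaminases, which complete the malate-aspartate shuttle, both fell, where 10.8% of all genes tested fell. Got1, the cytosolic enzyme, was at 62.5, 32.0, 58.7 and 56.2 CPM in mutants 1 to 4, against 105, 116, 107 and 109 CPM in controls 1 to 4 (log2 fold change -1.06, SE 0.20, adjusted p = 0.00951). Got2, the mitochondrial enzyme, was at 91.5, 61.2, 79.9 and 75.4 CPM in mutants 1 to 4, against 169, 155, 154 and 135 CPM in controls 1 to 4 (log2 fold change -0.99, SE 0.14, adjusted p = 0.00332). Got1 made up 55.8 ± 4.09% of the pair's FPKM in mutants and 57.5 ± 2.75% in controls (SD, n = 4 each), with overlapping groups. With column totals neither gene passed (adjusted p = 0.128 for Got1 and 0.0989 for Got2).

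At the entry of pyruvate, both carrier genes fell, where 10.8% of all genes tested fell. Mpc1 was at 23.6, 14.7, 24.1 and 19.3 CPM in mutants 1 to 4, against 40.8, 39.8, 40.3 and 43.6 CPM in controls 1 to 4 (log2 fold change -1.01, SE 0.16, adjusted p = 0.00494). Mpc2 (ENSMUSG00000026568, chromosome 1, 165460637 to 165481214) was at 44.4, 29.0, 45.4 and 37.8 CPM in mutants 1 to 4, against 118, 101, 93.8 and 93.1 CPM in controls 1 to 4 (log2 fold change -1.37, SE 0.16, adjusted p = 0.00176). Every mutant lay below every control in both genes, and Mpc2 also remained lower with column totals (-0.69, SE 0.17, adjusted p = 0.00861). Pcx, pyruvate carboxylase, which makes oxaloacetate from pyruvate, was at 252, 58.6, 184 and 188 CPM in mutants 1 to 4, against 252, 303, 239 and 264 CPM in controls 1 to 4 (log2 fold change -0.63, SE 0.37, adjusted p = 0.257). Mutant 1 lay within the control range and mutant 2 far below it, and the gene was not called. Pcx overlaps Lrfn4 on the opposite strand, which held 17.4% as many reads.

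Of the 5 pyruvate dehydrogenase complex genes, 4 fell, where 10.8% of all genes tested fell, and 5 had every mutant below every control, as had 16.1% of all genes tested. Pdhb, the E1 beta subunit, was at 69.0, 57.7, 69.8 and 65.7 CPM in mutants 1 to 4, against 139, 122, 125 and 123 CPM in controls 1 to 4 (log2 fold change -0.96, SE 0.10, adjusted p = 0.00137). Dld, the E3 dihydrolipoamide dehydrogenase shared with the 2-oxoglutarate dehydrogenase complex, was at 96.3, 64.7, 92.5 and 87.1 CPM in mutants 1 to 4, against 169.8, 154, 167 and 183 CPM in controls 1 to 4 (log2 fold change -0.98, SE 0.14, adjusted p = 0.00356). Fold ratios of mutant to control were 0.515 for Pdhb and 0.505 for Dld, without overlap. Dlat, the E2 acetyltransferase core, was at 60.5, 45.9, 55.3 and 56.2 CPM in mutants 1 to 4, against 88.0, 97.2, 83.7 and 91.3 CPM in controls 1 to 4 (log2 fold change -0.73, SE 0.11, adjusted p = 0.00413). Pdhx, the protein that binds E3 to the core, was at 20.6, 15.7, 20.6 and 20.7 CPM in mutants 1 to 4, against 33.7, 31.8, 30.5 and 32.1 CPM in controls 1 to 4 (log2 fold change -0.72, SE 0.12, adjusted p = 0.00555). Neither gene overlapped between the groups. With column totals both were near 0 on the log2 scale (-0.03 each, SE 0.13 and 0.14). Pdha1, the X-linked E1 alpha subunit, was at 174, 92.6, 117 and 137 CPM in mutants 1 to 4, against 175, 179.9, 201 and 211 CPM in controls 1 to 4, and was not called (log2 fold change -0.56, SE 0.19, adjusted p = 0.0723). Mutant 1 lay 1.11 CPM below the lowest control. Of 21 other fits, 4 called Pdha1 lower. These were without mutant 1 (-0.73, adjusted p = 0.0279), without mutant 2 (-0.42, adjusted p = 0.0401), with DESeq2 (-0.55, adjusted p = 0.0473) and with limma-voom. The rest did not call it, and with column totals its value was positive (0.14, SE 0.19, adjusted p = 0.547).

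Among the regulators of the complex 1 of 5 genes was called, a share close to the 20.2% of all genes tested that were called. Pdk2, a kinase isozyme found in many tissues (ENSMUSG00000038967, chromosome 11, 95026258 to 95041354), was at 50.3, 19.6, 51.2 and 35.2 CPM in mutants 1 to 4, against 103, 93.9, 114 and 97.9 CPM in controls 1 to 4. It was 2.62-fold lower in mutants without overlap (log2 fold change -1.39, SE 0.28, adjusted p = 0.0124). Pdk1, the isozyme known as a target of hypoxia-inducible factor, was at 69.9, 66.5, 52.0 and 46.4 CPM in mutants 1 to 4, against 42.1, 50.3, 39.8 and 45.9 CPM in controls 1 to 4, and the groups overlapped (log2 fold change 0.40, SE 0.15, adjusted p = 0.098). With column totals Pdk1 was higher in mutants (1.09, SE 0.18, adjusted p = 0.00162), where 59.3% of all genes tested were higher. Pdk3 was at 13.4, 18.2, 12.9 and 15.2 CPM in mutants 1 to 4, against 19.2, 16.8, 18 and 14.9 CPM in controls 1 to 4 and was not called (log2 fold change -0.20, SE 0.15, adjusted p = 0.362). Its value turned positive, and was called, with column totals (0.50, SE 0.17, adjusted p = 0.0296), where it lay below the median of 0.76 over all genes. Pdk4, the isozyme induced by fasting in many tissues, was at 14.4, 3.35, 6.94 and 19.3 CPM in mutants 1 to 4, against 21.6, 9.22, 54.6 and 35.5 CPM in controls 1 to 4. Levels of Pdk4 varied several-fold within each group, and the gene was not called (log2 fold change -1.46, SE 0.65, adjusted p = 0.143). Pdp1, a catalytic subunit of the phosphatase that reactivates the complex, was at 8.89, 9.57, 7.93 and 10.2 CPM in mutants 1 to 4, against 10.5, 13.3, 11.4 and 10.8 CPM in controls 1 to 4 (log2 fold change -0.33, SE 0.15, adjusted p = 0.163).

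Summed over the 4 kinases, FPKM was 34.0, 22.7, 29.8 and 28.2 in mutants 1 to 4, against 51.3, 44.8, 63.5 and 52.2 in controls 1 to 4, without overlap. The makeup of that sum also differed. Pdk2 made up 46.5, 27.2, 54.1 and 39.0% in mutants 1 to 4, against 63.2, 65.5, 56.5 and 58.6% in controls 1 to 4. Pdk1 made up 26.3, 37.5, 22.4 and 20.9% in mutants 1 to 4, against 10.5, 14.2, 8.03 and 11.2% in controls 1 to 4. Pdk3 made up 15.3, 31.2, 16.9 and 20.8% in mutants 1 to 4, against 14.5, 14.5, 11.0 and 11.0% in controls 1 to 4. In mutants the share of Pdk2 was lower, and those of Pdk1 and Pdk3 higher, than in any control. Taken as shares of CPM, those of Pdk3 overlapped. Pdk4 made up 11.96, 4.18, 6.61 and 19.3% in mutants 1 to 4, against 11.9, 5.79, 24.4 and 19.2% in controls 1 to 4, and its groups overlapped.

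Of the genes that draw carbon out of the cycle, 1 of 3 was called, where 20.2% of all genes tested were. Pck1, cytosolic phosphoenolpyruvate carboxykinase (ENSMUSG00000027513, chromosome 2, 173153048 to 173159273), known from gluconeogenic tissues and fat, was the least abundant of the 33 genes, with 9, 16, 16 and 9 reads in mutants 1 to 4, against 85, 49, 69 and 22 reads in controls 1 to 4. That came to 0.301, 0.654, 0.690 and 0.386 CPM in mutants 1 to 4, against 5.34, 3.23, 4.40 and 1.32 CPM in controls 1 to 4. It was 7.04-fold lower in mutants without overlap (log2 fold change -2.81, SE 0.50, adjusted p = 0.00791). The 7 adipocyte markers summed to 38.4 to 59.8 CPM in mutants, against 185, 115, 107 and 101 CPM in controls 1 to 4. Of the 3 tested, 2 were lower, where 10.8% of all genes tested were. The most abundant of the 7 was Fabp4, which was lower (34.3 ± 16.1 CPM in mutants and 92.1 ± 15.7 CPM in controls, SD, n = 4). Cidec overlapped between the groups and was not called (10.2 ± 6.03 CPM in mutants and 16.7 ± 6.91 CPM in controls, adjusted p = 0.464). Adipoq, Lep and Cfd were at 0 in all 4 mutants. In controls they were at 3.25 ± 4.27, 0.410 ± 0.650 and 10.9 ± 11.5 CPM (SD, n = 4). Adipoq and Lep were not tested, and their groups overlapped at 0. The part of fat tissue in the level of Pck1 was not tested.

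Pck2, the mitochondrial isozyme, was at 22.05, 42.4, 25.9 and 23.8 CPM in mutants 1 to 4, against 27.7, 20.8, 21.3 and 14.7 CPM in controls 1 to 4 (log2 fold change 0.44, SE 0.26, adjusted p = 0.259). Acly, ATP citrate lyase, which splits exported citrate into acetyl-CoA for lipid synthesis, was at 147, 280.2, 183 and 199 CPM in mutants 1 to 4, against 151, 165, 161 and 186 CPM in controls 1 to 4 (log2 fold change 0.29, SE 0.20, adjusted p = 0.318). In both genes mutant 2 was the highest library, the groups overlapped, and neither gene was called. Without mutant 2 the log2 fold change was 0.18 for Pck2 and 0.09 for Acly. With column totals both were higher in mutants (1.14, SE 0.27, adjusted p = 0.00716 for Pck2, and 0.99, SE 0.22, adjusted p = 0.00573 for Acly). On that scale 59.3% of all genes tested were higher, and the median over all genes was 0.76. Pck1 made up 3.01, 3.40, 5.71 and 3.56% in mutants 1 to 4, against 30.5, 26.2, 32.1 and 16.97% in controls 1 to 4 of the pair's FPKM, and each mutant lay below each control.

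Mutant 2 was the lowest of the 4 mutants in 26 of the 33 genes and the highest in Pdk3, Acly and Pck2. Without it, 24 of the 33 genes were lower and 1 was higher, where 18.3% and 15.2% of all genes tested were. All 22 calls made with 8 libraries remained. The median log2 fold change of the 33 genes was then -0.83, against -0.95 with all 8 libraries. With both libraries that held squamous transcripts left out, 17 of the 33 genes were lower and 1 was higher, where 5.14% and 3.67% of all genes tested were.

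Of 26 further genes of the pathway, listed from general knowledge of its enzymes and carriers, 14 were lower and none was higher (53.8%, where 10.8% of all genes tested were lower), with a median log2 fold change of -0.71. Of the 3 with a positive value, 1 had an unadjusted p under 0.05 in edgeR, Pdpr, a regulatory subunit of the phosphatase (log2 fold change 0.93, SE 0.34, adjusted p = 0.083), and DESeq2 and limma-voom each called 1 of the 26 higher. The smallest p was that of Ldhb, the lactate dehydrogenase subunit of oxidative tissues, at 41.5, 24.3, 63.6 and 36.3 CPM in mutants 1 to 4, against 419, 349, 376 and 351 CPM in controls 1 to 4 (log2 fold change -3.17, SE 0.29, adjusted p = 0.000933). Ldha, the subunit of glycolytic tissues, overlapped between the groups and was not called (474 ± 27.3 CPM in mutants and 505 ± 143 CPM in controls, log2 fold change -0.09, SE 0.21, adjusted p = 0.785). Pcca, the propionyl-CoA carboxylase subunit that leads into the cycle at succinyl-CoA, was at 25.2 ± 6.05 CPM in mutants and 86.8 ± 9.96 CPM in controls (log2 fold change -1.79, SE 0.19, adjusted p = 0.00141), and Slc25a12 and Slc25a11, carriers of the malate-aspartate shuttle, also fell (log2 fold change -0.72, SE 0.0875, adjusted p = 0.00196 for Slc25a12, and log2 fold change -0.70, SE 0.10, adjusted p = 0.0037 for Slc25a11).

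Among the dehydrogenase genes of that list, Sdha and Sdhb, the flavoprotein and iron-sulfur subunits of succinate dehydrogenase, were lower (log2 fold change -1.03, SE 0.16, adjusted p = 0.00468 for Sdha, and log2 fold change -1.24, SE 0.23, adjusted p = 0.00899 for Sdhb). Sdhc, a membrane anchor subunit, fell (log2 fold change -1.04, SE 0.21, adjusted p = 0.0122), and Sdhd, its partner anchor, was not called (log2 fold change -0.53, SE 0.24, adjusted p = 0.148). Me3, a mitochondrial NADP-dependent malic enzyme, was at 3.34 ± 2.70 CPM in mutants and 30.9 ± 4.26 CPM in controls (SD, n = 4 each, log2 fold change -3.21, SE 0.50, adjusted p = 0.00472). Me1, the cytosolic malic enzyme, was not called (log2 fold change -0.24, SE 0.47, adjusted p = 0.746). Without mutant 2, 16 of the 26 were lower and 1 was higher, where 18.3% and 15.2% of all genes tested were. With column totals 4 of the 26 were lower, where 4.56% of all genes tested were, and 4 were higher, where 59.3% were.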

How the data were processed

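PolyA libraries of 8 mice were prepared with NEBNext Ultra reagents, per the labels' protocols. The deposited tables hold whole read counts and FPKM, both per Ensembl gene, as the authors made them. The submitters' processing notes list CASAVA, fastp, STAR 2.5 and featureCounts but not what each did, and the sources used here state neither genome build nor strand setting. Starts and ends of all 33 genes equalled those in GENCODE M21 (GRCm38). The column SCI was taken as control SC1. The library sizes implied by the deposited FPKM lay within 1.00 to 1.01 times the TMM library sizes, so the FPKM carry the same scaling.

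After filterByExpr and TMM scaling, counts went into the robust quasi-likelihood test of edgeR 4.0.16 in R 4.3.3, mutant over control, Benjamini-Hochberg adjusted over all 15862 genes. Where no other tool is named, an adjusted p is from this test. The SE is the size of the unshrunken coefficient over the square root of F. A floor of 3 reads was 0.100 to 0.129 CPM in mutants and 0.179 to 0.198 CPM in controls, counting error only. All within-group pairs of libraries differed beyond sampling noise (chi-square per degree of freedom of 15.4 or more), and each counted as 1 replicate.

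The 33 genes, the lists and the tests were chosen with earlier results of these data known, and marker and pathway lists came from general knowledge. Named were all 33 genes and up to 8 called genes of the further list by smallest p. Ldha, Sdhd, Me1 and Pdpr were added, after their values were seen. Tried instead were limma-voom (sample weights), DESeq2 1.42.0, RLE factors, column totals with and without the 50 most abundant genes, TMM without parietal and chief cell markers and those genes, each library left out, a block for the replicate number, no low-count filter, a minimum of 1 CPM in 4 libraries, both libraries with squamous transcripts left out, an adjusted p under 0.01, and limma-trend (limma 3.58.1) on log2(FPKM + 1) or log2(FPKM + 0.1) (mean FPKM of 0.5 or more, or unfiltered). Motifs were matched by letters on both strands.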

Additional observations from a re-analysis of the deposited data

Results flagged for a closer look

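In 7 of the 66 sets of 4 libraries (33 genes in each group), 1 library stood farther from the others than Dixon's criterion for 4 values allows. Chance gives such a gap in about 1 in 20 sets. All 7 were low values of mutant 2. Pdhx was at 15.7 CPM in mutant 2, against 20.6 to 20.7 in the other mutants. Idh3a was at 47.9 CPM there, against 58.6 to 58.9. Idh3g stood at 51.7 CPM, against 75.5 to 77.9 in the others. Fh1 had 51.6 CPM in mutant 2 and 98.0 to 107 in the other mutants. Mdh2 had 122 CPM, against 207 to 218, and Got1 had 32.0 CPM, against 56.2 to 62.5. Aco1, not called between the groups, was at 68.9 CPM in mutant 2 and 94.5 to 99.4 in the other mutants. Mutant 2 also held the highest sum of the joint fibroblast and endothelial marker list and the highest sum of the leukocyte markers. The part of either in these low values was not tested.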

How the results depend on the processing

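No called gene of the 33 changed sign in 21 other fits, and 18 of the 22 calls remained in the 20 other than column totals. The other 4, Cs, Idh3b, Fh1 and Mdh2, were lost in some, with an adjusted p of at most 0.104. At an adjusted p under 0.01, 16 of the 33 passed, where 1047 of all 15862 genes tested did. With column totals 12 of the 33 were called, 6 lower and 6 higher, where 4.56% and 59.3% of all genes tested were. Pdk3 (0.50) and Aco1 (0.66) turned positive there and passed, though both lay below the median of 0.76 over all genes on that scale. Of the 26 further pathway genes 8 were called then, 4 in each direction (4.56% of all genes were lower and 59.3% higher), against 7 lower without both squamous libraries and 7 lower at an adjusted p under 0.01. With DESeq2 and limma-voom 1 of them was higher, and 0 or 1 with 1 library left out. Calls over all genes (3208, 1719 lower and 1489 higher) numbered 4930 with DESeq2 (2422 higher), 5668 with limma-voom (3066 and 2602), 10136 with column totals (724 and 9412), 1410 without both squamous libraries (823 and 587) and 1047 at an adjusted p under 0.01 (667 and 380). With limma-trend and no filter 827 were higher. Leaving out 1 library gave 1717 to 5400 calls, 1018 to 2953 lower and 665 to 2447 higher.

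Libraries with the same replicate number did not deviate together across all genes tested (correlations of 0.06, -0.11, 0.05 and 0.00). Mutant 3 and control 3 nevertheless both held squamous transcripts (564 and 214 summed CPM). These correlations cannot tell whether libraries of the same number share a day, litter or dissection. With the replicate number as a block 1824 genes were called (1077 lower and 747 higher), and 18 of the 33 genes were lower and 1 higher. Measured as shares of CPM in place of FPKM, the difference in share, mutant minus control, was 24.5 percentage points for Pdk1 (15.8 in FPKM) and -12.0 for Pck1 (-22.5 in FPKM). Depth limited Pck1 most, with 9 to 85 reads per library.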
